A study of Macaca mulatta with 24 samples.

Results

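The gene expression profile of the temporal neocortex was compared between rhesus monkeys kept on a high-fat, high-sugar diet (HFS) and monkeys kept on a standard diet (SD). These monkeys gave 14 of the 24 arrays of the series, 10 HFS and 4 SD, and the other 10 came from monkeys that ate the HFS diet with resveratrol (HFS+R). All genes called detected were described, which meant a detection p under 0.01 on 4 or more of the 24 arrays. This left 9884 genes, each read on 1 probe. HFS monkeys drew 42% of their kcal from fat, and sucrose made up 27% of the weight of their food. In the SD food the figures were 13% of kcal and under 5% of weight. Animals of both groups were males, which the study describes as 7 to 13 years old, without stating whether before or after the diet. They ate their diet for 24 months and took 2 placebo treats a day. In HFS+R animals each treat carried resveratrol, 40 mg during year 1 and 240 mg during year 2. Animals had been assigned by a quasi-random scheme, and the brain was perfused with Ringer's solution before it was dissected. The region is named here as the labels give it, and other passages of the study speak of frontal or prefrontal cortex.

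The temporal neocortex is association cortex made of excitatory neurons and interneurons with their astrocytes, oligodendrocytes, microglia and vessels. Neurons of the cortex draw most of their energy from glucose through mitochondrial respiration, and astrocytes clear glutamate and pass on lipid. Diets rich in fat and sugar have been tied in rodents to inflammation and impaired insulin action in the brain, and the comparison asks whether transcripts of such pathways differ after a long feeding period in a primate.

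Transcripts were read on the HumanHT-12 V4.0 beadchip of Illumina. Its short probes were designed on human transcripts, and whether each one matches the monkey sequence was not examined. Levels are given on a log2 scale after each array had been centred and scaled to the same spread (a Z score times 1 common factor), so that a difference of 1 is a doubling of signal only on arrays of average spread, and a difference in scaled level need not be one in signal. Differences are log2 fold changes of HFS over SD with their standard errors (SE). Of 47323 probes, the median signal was 56.3 to 60.3 on HFS arrays and 56.5 to 60 on SD arrays. Probes detected at p under 0.01 averaged 13635.5 ± 652 on HFS arrays and 13613 ± 1501 on SD arrays (± is the standard deviation, n = 10 and 4). The spread of the log2 signal within an array was 1.423 ± 0.052 on HFS arrays and 1.499 ± 0.080 on SD arrays, an HFS minus SD difference of −0.08 (exact permutation test over all splits of the 14 arrays, 2-sided p = 0.0559). SD arrays 1 and 2 had the widest spread, 1.57 and 1.56. On the first principal component over all genes, with 20.1% of the variance, they lay at 24.1 and 15.1, above the highest HFS array at 8.79. SD arrays 3 and 4 lay at −2.30 and −4.38, among the HFS arrays. Values without these 2 arrays are given for some of the genes and lists. Where none is given, the result may still depend on them.

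No gene differed between HFS and SD at an adjusted p under 0.05 (limma with Benjamini-Hochberg adjustment over 9884 genes, 0% called). The lowest adjusted p was 0.151. At an unadjusted p under 0.05 there were 1250 genes, 12.6% of those tested, of which 476 were higher (4.82%) and 774 lower (7.83%) in HFS. After quantile normalization this split was 578 higher and 572 lower, after neqc 581 and 556, and after scaling each array by its median 30 and 2380. The median log2 fold change of all genes was −0.03, and −0.16 with median scaling, so the directions below are relative to the whole array. The differences were small. In 8762 genes the log2 fold change was under 0.25 in size, in 87 it was over 0.5 and in 8 over 1 (of these, HBA2, MT1H and MAFF were detected on all 14 arrays), and 5% to 95% of the genes lay between −0.29 and 0.22.

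The sign of the difference went with the level of the gene. When genes were ordered by their mean level and cut into 5 equal bins, the median log2 fold change from the lowest to the highest bin was −0.01, −0.05, −0.06, −0.04 and 0.04. The highest bin held 264 genes that were higher and 119 that were lower in HFS at an unadjusted p under 0.05, and the middle bin held 37 and 213. After quantile normalization the medians of all 5 bins were within 0.01 of 0, and after median scaling they ran from −0.06 in the lowest to −0.23 in the highest bin. Cytosolic ribosomal proteins, complexes I and IV, ATP synthase, glycolysis and the citric acid cycle are therefore given with the number of members in that bin. Other lists with abundant genes are given without it.

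**Figure D1:**
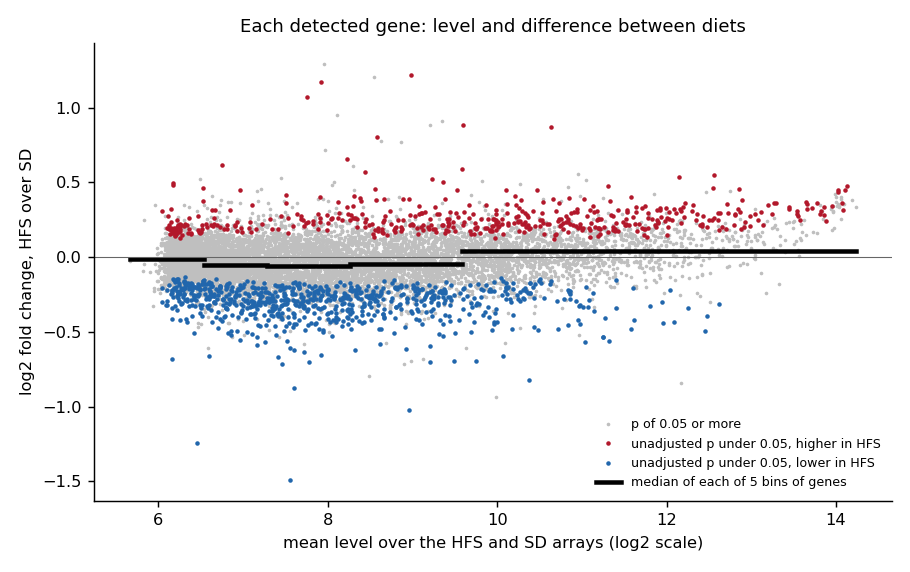
Mean level (x axis, log2 scale) and log2 fold change of HFS over SD (y axis) of the 9884 detected genes, with genes at an unadjusted p under 0.05 in colour and the median of each of 5 bins of genes as a black line. The line lies below 0 in the 4 lower bins (−0.01 to −0.06) and at 0.04 in the highest.

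MT1H, one of the metallothioneins that hold zinc and copper in the cell, had the largest positive difference among genes that were detected on all 14 arrays and had an unadjusted p under 0.01. Its level was 7.46 on the lowest HFS array, 8.34 at the median and 9.40 on the highest, against 7.22, 7.45, 7.07 and 6.99 on the SD arrays. All 10 HFS arrays lay above every SD array, with a gap of 0.01 (log2 fold change 1.17, SE 0.32, limma adjusted p = 0.189). Before scaling the signals of MT1H overlapped, at 173.4 to 527.3 in HFS against 120.1 to 195.3 in SD. Metallothionein 1 genes are near-identical copies of each other, so the probe may read more than 1 of them.

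NEU4, a sialidase that trims sialic acid from glycans and gangliosides, had a smaller difference. It was at 8.24 on the lowest HFS array, 8.78 at the median and 9.13 on the highest, against 8.20, 8.52, 7.72 and 7.45 in SD. Every HFS array was above the SD mean, and 1 SD array lay inside the HFS range (log2 fold change 0.81, SE 0.22, limma adjusted p = 0.189, and 1.20 without SD arrays 1 and 2). The difference next in size to that of MT1H was that of UQCRBP1. This gene, a pseudogene of a complex III subunit whose signal may come from its parent gene, averaged 10.9 ± 0.30 in HFS and 10.0 ± 1.30 in SD, a difference of 0.87, with SD array 4 at 8.14. The difference was 0.24 without that array and 1.73 without SD arrays 1 and 2. COMMD4 likewise had HFS levels of 8.09 to 8.65 against 8.47, 6.66, 8.41 and 7.58 in SD, where 2 of the SD arrays lay within the HFS range (log2 fold change 0.65, and 0.28 without SD array 2).

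PAQR4, a member of the progestin and adipoQ receptor family, had the smallest p among the positive differences. Its HFS levels ran over 10.76, 10.95 and 11.30 (lowest, median and highest), against 10.59, 10.59, 10.66 and 10.44 in SD. The groups did not overlap, with a gap of 0.10 (log2 fold change 0.40, SE 0.09, limma adjusted p = 0.181). This was the widest gap of the genes that were higher and were detected on every HFS array. Before scaling the signals of PAQR4 did overlap, at 1500.7 to 2420.8 in HFS against 1193.7 to 2085.3 in SD. KCNS1, a modulatory potassium channel subunit, was at 12.40, 12.75 and 12.96 in HFS, against 12.36, 12.15, 11.98 and 12.57 in SD (log2 fold change 0.46, SE 0.11, limma adjusted p = 0.181). Its difference was 0.10 with median scaling, and its signals before scaling were 4602.3 to 7805.4 in HFS against 4056.3 to 7819.6 in SD.

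The other genes among the 15 largest positive differences were between 0.39 and 0.59. They were GASK1B (0.59), SNRPN (0.54), an imprinted splicing protein whose second probe gave 0.38, MT1E (0.48), TAGLN2 (0.46), an actin-binding protein, NGEF (0.41), a guanine nucleotide exchange factor, C16orf92 (0.41), GFRA2 (0.40), the receptor for neurturin, FASN (0.39), the fatty acid synthase, and R3HCC1 (0.39). The limma adjusted p of these 9 genes was 0.182 to 0.262. The scaled levels of SNRPN, R3HCC1 and C16orf92 did not overlap between the groups, whereas their signals before scaling did. The difference of MT1E was 0.30 without SD array 4 and that of R3HCC1 0.25 without SD array 2. Without SD arrays 1 and 2, NGEF was at 0.23, C16orf92 at 0.20, FASN at 0.18 and R3HCC1 at 0.26.

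**Figure D2:**
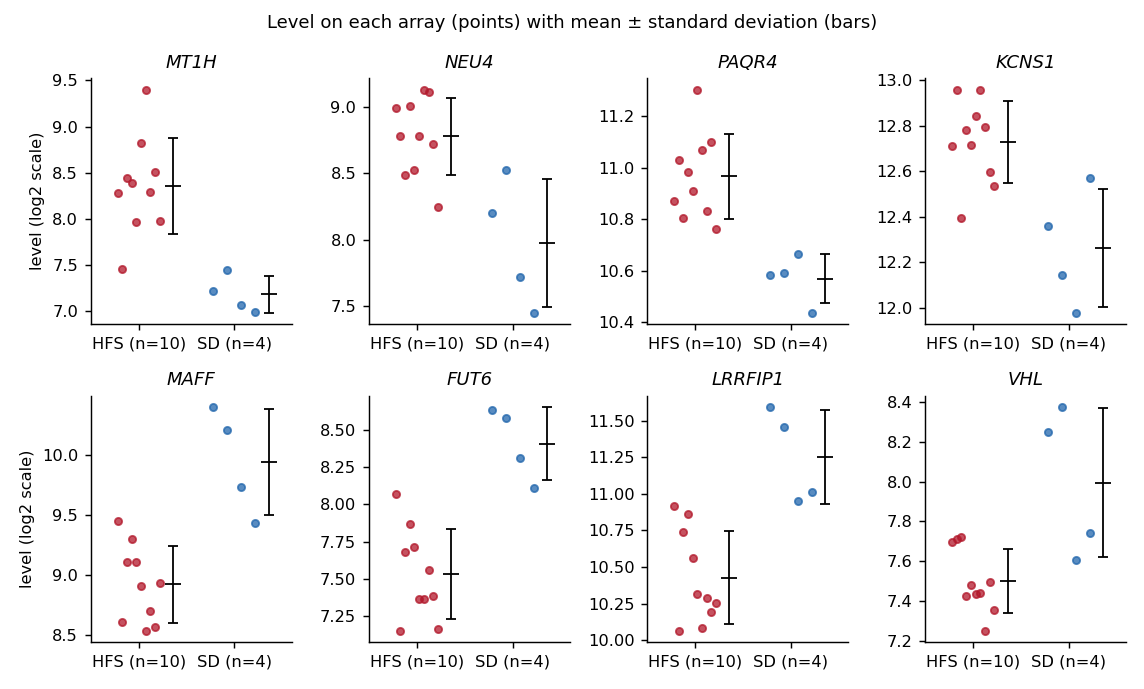
Level of 8 genes on each array (y axis, log2 scale) in HFS (n = 10, left) and SD (n = 4, right), with the mean and standard deviation as bars. MT1H and PAQR4 lie above all SD arrays in HFS and FUT6 and LRRFIP1 below them, while VHL on 2 of the SD arrays (7.61 and 7.74) is near the HFS levels.

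MAFF, a small Maf transcription factor that pairs with NRF2 and related factors, was the gene with the largest negative difference by the same rule. HFS levels were 8.53, 8.92 and 9.45 (lowest, median, highest), against 10.40, 10.21, 9.73 and 9.43 in SD. The groups overlapped by 0.02 (log2 fold change −1.02, SE 0.21, limma adjusted p = 0.181). Without SD arrays 1 and 2 the difference was −0.66. FUT6, a fucosyltransferase, had the lowest p of all genes tested. Its levels were 7.15, 7.47 and 8.07 in HFS, against 8.63, 8.58, 8.31 and 8.11 in SD, with no overlap and a gap of 0.04 (log2 fold change −0.87, SE 0.16, limma adjusted p = 0.151). It has close paralogues, and its symbol has no match in the macaque gene table.

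LRRFIP1, a protein that binds nucleic acids, was at 10.06, 10.30 and 10.92 in HFS, against 11.59, 11.46, 10.95 and 11.01 in SD, again without overlap (log2 fold change −0.82, SE 0.21, limma adjusted p = 0.182). SLC30A7, which carries zinc into the Golgi, was at 6.55, 7.39 and 7.68 in HFS, against 8.58, 8.07, 7.73 and 7.63 in SD (log2 fold change −0.72, SE 0.18, limma adjusted p = 0.182). Without SD arrays 1 and 2 these differences were −0.55 for LRRFIP1 and −0.39 for SLC30A7, and that of FUT6 was −0.68. The highest levels of MAFF, FUT6, LRRFIP1 and SLC30A7 were thus all on SD arrays 1 and 2.

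The other 11 of the 15 largest negative differences lay between −0.70 and −0.57. They included MYO3B (−0.70), a class III myosin, MBTD1 (−0.67), a chromatin protein, STK4 (−0.63), a kinase of the Hippo pathway, SYT17 (−0.61), a synaptotagmin, and MINDY1 (−0.59), a deubiquitinase. C6orf52 (−0.70), KIAA0408 (−0.62) and the spliceosomal RNA RNU4-2 (−0.58) were in the same range. XRCC2 (−0.66), a DNA repair protein, and FKBP14 (−0.57), a prolyl isomerase of the endoplasmic reticulum, had second probes at 0.14 and 0.08. NKAIN2 (−0.58), which binds the sodium pump, had a second probe at −0.33. The limma adjusted p of the 11 genes was 0.181 to 0.262. Without SD arrays 1 and 2, MBTD1 was at −0.30, C6orf52 at −0.35, KIAA0408 at −0.37, RNU4-2 at −0.38 and STK4 at −0.42. Leaving out 1 array moved SYT17 to −0.31 (without SD array 3) and C6orf52 to −0.44 (without SD array 1).

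The same SD arrays served the comparison of HFS+R with SD, so its values are given only side by side and are not independent. MAFF averaged 8.59 in HFS+R (log2 fold change against SD −1.35, adjusted p = 0.000436), FUT6 7.35 (−1.06, adjusted p = 0.000428) and LRRFIP1 9.96 (−1.29, adjusted p = 0.000639), all in limma. These 3 differences passed in HFS+R against SD, whereas those of HFS against SD did not, and whether HFS and HFS+R differed in them was not tested here. MT1H averaged 7.78 in HFS+R, 0.60 above SD (adjusted p = 0.304).

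All HFS arrays lay above or below all SD arrays for 53 genes, 0.536% of those tested, 23 of them higher (0.233%) and 30 lower (0.304%) in HFS. Quantile normalization and neqc each gave 38 higher and 25 lower, and median scaling 0 and 53. Gaps were ranked only among genes detected on every array of the group with the higher level. With the widest gaps among the genes that were higher, next to PAQR4, came CX3CL1 (log2 fold change 0.31), the neuronal chemokine fractalkine that microglia sense, at 10.88 to 11.31 in HFS against 10.65 to 10.81 in SD. The signals of CX3CL1 before scaling overlapped, at 1381.7 to 2523.2 in HFS against 1527.7 to 2232.6 in SD. IKZF3 (0.32), a lymphoid transcription factor near the detection limit and detected on all 10 HFS and 3 of 4 SD arrays, ARRB1 (0.30), the adaptor beta-arrestin 1, and RAB5IF (0.34) completed the 5. Other probes of ARRB1 gave −0.01 and 0.04, and those of RAB5IF gave 0.25 and 0.08. The unscaled signals of IKZF3, ARRB1 and RAB5IF overlapped between the groups as well. SOX11, a transcription factor of developing neurons, had the widest gap of the genes so ranked, 0.14. It was at 6.13 to 6.48 in HFS, detected on 7 of 10 arrays, against 6.63 to 6.80 in SD, detected on 4 of 4 (log2 fold change −0.39, SE 0.08, limma adjusted p = 0.181). LMF2 (−0.31), which matures lipases, LTAP1 (−0.22), JPH1 (−0.32), a junctophilin, and HEY1 (−0.31), a target of Notch signalling whose other probe gave 0.05, followed with gaps of 0.07 to 0.08. Before scaling the signals of LTAP1 and HEY1 overlapped between the groups, and those of SOX11, LMF2 and JPH1 did not.

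Genes taken up in the study for diet, neurons or vessels were read next, and the 27 that were detected are given here or above. KCNK12, a two-pore-domain potassium channel, was at 11.41, 11.60 and 11.77 (lowest, median, highest) in HFS, against 11.03, 11.02, 11.19 and 11.64 in SD (log2 fold change 0.37, SE 0.10, limma adjusted p = 0.189). BBOX1, the last enzyme of carnitine synthesis, was at 6.80, 7.14 and 7.55 in HFS, against 7.67, 7.62, 7.55 and 7.81 in SD, with the groups touching (log2 fold change −0.52, SE 0.12, limma adjusted p = 0.181). CST3, the protease inhibitor cystatin C, averaged 13.9 ± 0.32 in HFS and 13.6 ± 0.23 in SD (log2 fold change 0.33, SE 0.15, limma adjusted p = 0.362), and 8 of 10 HFS arrays were above the SD mean.

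Among neuronal genes, CHRNA5, a nicotinic receptor subunit, averaged 10.2 ± 0.34 in HFS and 10.7 ± 0.25 in SD (log2 fold change −0.48, SE 0.16, limma adjusted p = 0.262). The NMDA receptor subunit GRIN2B was at −0.23 and the spectrin SPTBN1 at −0.40 (limma adjusted p = 0.496 and 0.686). The spread of SPTBN1 was 0.80 among HFS arrays and 0.20 among SD arrays. IL6 and TNFRSF25 were not kept by the detection rule.

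Of the genes tied to vessels, VHL, the ubiquitin ligase subunit that marks hypoxia-inducible factor for decay, was at 7.25, 7.46 and 7.72 in HFS, against 8.25, 8.37, 7.61 and 7.74 in SD. Its log2 fold change was −0.49 (SE 0.12, limma adjusted p = 0.181), −0.17 without SD arrays 1 and 2, and −0.21 on its second probe. On the brightest probe of each, HIF1A (−0.03), VEGFA (0.08), NOS3 (0.01), FOXO3 (0.16) and PECAM1 (0.00) differed by no more than 0.16, with limma adjusted p of 0.747 to 0.996. A second probe of HIF1A gave −0.22. NOS3, the endothelial nitric oxide synthase, was detected on 9 of 10 HFS and 4 of 4 SD arrays. The study names FOXO3 as an activator of NOS3 transcription. The mitochondrial aldehyde dehydrogenase ALDH2 (−0.13), the deacetylase SIRT2 (−0.12), RELA (0.00), the microglial marker AIF1 (−0.11), BCL2 (−0.26) and NFKB1 (−0.24) had limma adjusted p of 0.304 to 0.996. Of these, BCL2 and NFKB1 were lower at an unadjusted p under 0.05, and a second probe of BCL2 gave −0.13. NFKBIA, the inhibitor that holds NF-kB in the cytosol, averaged 11.7 ± 0.14 in HFS and 11.5 ± 0.40 in SD (log2 fold change 0.19, limma adjusted p = 0.519), and the cytokine IL18 13.1 ± 0.29 in HFS and 13.0 ± 0.23 in SD (0.09, limma adjusted p = 0.812). Of the COMMD family, COMMD3 was at 0.06 and COMMD10 at −0.10, with 0.25 on its second probe (limma adjusted p = 0.882 and 0.772). The 3 genes often used for normalization were all positive. GAPDH had 0.46 on 2 probes and −0.15 on the third. ACTB had 0.26 on its brightest probe and 0.44 and 0.01 on others. TUBA1A had 0.32, with SD levels that spanned 11.95 to 13.78. Quantile normalization and median scaling both turned ACTB to negative, −0.04 and −0.18.

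Gene lists were described by counts and medians beside those of all genes (41.8% above 0, 58.2% below, median −0.03). Counts at an unadjusted p under 0.05 stand beside 4.82% higher and 7.83% lower among all genes. They were chosen with earlier results of these data known, and a list's count gives no independent support to a direction. Metallothioneins buffer zinc and copper. Of 6 measured, 5 were above 0 with a median of 0.20, and MT1H and MT1E had an unadjusted p under 0.05. MT2A was at 0.36 and the brain form MT3 at −0.34, neither with an unadjusted p under 0.05. With median scaling the median of the list was 0.00. Zinc and copper carriers and their metal-sensing factor lay the other way. Of 18 measured, 13 were below 0 with a median of −0.13, and 4 had an unadjusted p under 0.05, all lower in HFS (22.2% of the list). The median was −0.07 without SD arrays 1 and 2 and −0.00 with the array spread as a covariate. These were SLC30A7, SLC30A9 (−0.52), MTF1 (−0.26), the factor that switches on metallothioneins in response to zinc, and SLC39A9 (−0.21). SLC30A9 was at 7.96 and 7.74 on SD arrays 1 and 2 and at 7.16 and 7.01 on the other two, and without the first pair its difference was −0.13.

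Subunits of the respiratory chain are encoded by abundant transcripts. In complex I, 21 of 27 measured genes were above 0 (median 0.13), 6 with an unadjusted p under 0.05 and higher in HFS (22.2%) and none lower. Among them NDUFS7 averaged 11.9 ± 0.23 in HFS and 11.5 ± 0.20 in SD, and NDUFA12 10.95 ± 0.17 in HFS and 10.62 ± 0.26 in SD (log2 fold change 0.33 for both). In complex IV, 7 of 9 were above 0 (median 0.12, 3 at an unadjusted p under 0.05), led by COX7A1 (0.34). In ATP synthase, 12 of 13 were above 0 (median 0.11, 4 at an unadjusted p under 0.05), with ATP5F1B at 0.35 and ATP5MG at 0.32. SDHC (0.29) and CYC1 (0.30), of complexes II and III, were higher on all 10 HFS arrays than the SD mean, and their lists had medians of −0.12 (3 genes) and 0.02 (6 genes). Of these genes the highest bin of levels held 18 of complex I, 5 of complex IV and 10 of ATP synthase. With quantile normalization the 3 medians were 0.09, 0.10 and 0.08, with median scaling −0.15, −0.11 and −0.15, and without SD arrays 1 and 2 0.04, 0.14 and 0.08.

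Cytosolic ribosomal proteins, of which 48 of 64 were in the highest bin, had 47 genes above 0 and a median of 0.15. At an unadjusted p under 0.05, 17 were higher (26.6%) and 1 lower (1.56%) in HFS. RPS29 averaged 13.5 ± 0.20 in HFS and 13.2 ± 0.08 in SD (log2 fold change 0.33), and RPS14 was at 0.36. The median was 0.06 with quantile normalization, 0.02 without SD arrays 1 and 2 and −0.16 with median scaling. Ribosomal proteins have many processed pseudogenes, from which the probes may not tell them. Mitochondrial ribosomal proteins were split, with 33 above and 32 below 0 and a median of 0.02, and MRPL34 was at 0.45. Glycolytic enzymes had a median of 0.07 with 14 of 22 above 0 (ALDOC 0.31), and citric acid cycle enzymes 0.07 with 8 of 12 above 0 (MDH1 0.34). The highest bin held 12 of the glycolytic and 6 of the citric acid cycle genes. Their medians were 0.06 and 0.07 with quantile normalization, and −0.16 for both with median scaling.

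Zinc finger transcription factors of the ZNF family formed the largest list on the negative side. Of 252 measured, 192 were below 0 (median −0.07). At an unadjusted p under 0.05, 42 were lower and 4 higher, 16.7% and 1.59% of the list, beside 7.83% and 4.82% of all genes. ZNF577 (−0.42), ZNF7 (−0.35) and ZNF557 (−0.34) were examples, and ZNF7 was at 7.93 to 8.31 in HFS against 8.25 to 8.85 in SD. The list's median was −0.05 with quantile normalization and −0.01 without SD arrays 1 and 2. In the translation and protein turnover lists the subunit EIF2B3 (−0.44) of the exchange factor for initiation, the proteasome subunit PSMD14 (−0.29) and the ubiquitin-conjugating enzyme UBE2N (−0.37) were lower in HFS at an unadjusted p under 0.05, while the elongation factor EEF1A2 (0.37), the initiation factor subunit EIF3H (0.24) and the proteasome subunit PSMB5 (0.25) were higher. Translation factors had 29 of 51 above 0, with 3 higher and 3 lower at that p. Proteasome genes had 15 above and 15 below 0, also with 3 higher and 3 lower, and ubiquitin-conjugating enzymes 8 of 20 above 0, with 2 lower and none higher.

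**Figure D3:**
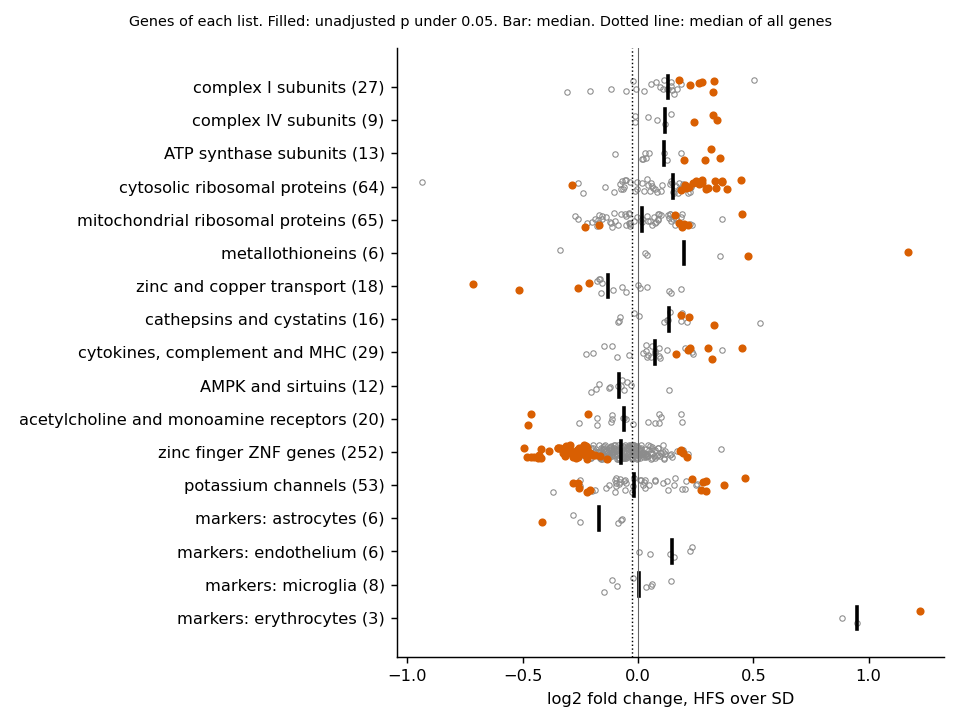
Log2 fold change of HFS over SD (x axis) of each measured gene in 17 lists (y axis, number of genes in brackets), with filled points at an unadjusted p under 0.05, black bars at list medians and a dotted line at the median of all genes (−0.03). Respiratory chain, cytosolic ribosomal and erythrocyte genes lie mostly right of 0, and ZNF genes, zinc carriers and astrocyte markers mostly left. Mitochondrial ribosomal genes lie on both sides.

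Lists on lipid metabolism and insulin signalling were near the median of all genes. In cholesterol synthesis and uptake, 6 of 13 were above 0 (median −0.07). SQLE (−0.30) and MSMO1 (−0.34 on its brightest probe), enzymes of the sterol pathway, did not reach an unadjusted p of 0.05, and HSD17B7 (−0.29) did. Other probes of MSMO1 gave 0.01 and −0.39, the latter at an unadjusted p under 0.05. Cholesterol efflux genes were even, with APOE at 0.22 and the exporter ABCA1 at −0.25, neither at an unadjusted p under 0.05. Fatty acid synthesis and desaturation had 6 of 17 above 0, with FASN on the positive side and ACSL4 (−0.52) on the negative. ACSL4, which activates arachidonic acid, was detected on 8 of 10 HFS and 4 of 4 SD arrays. Its second probe gave −0.13. Fatty acid oxidation had 11 of 26 above 0 (median −0.03). Among insulin and leptin signalling genes (9 of 21 above 0) IGFBP2, a binding protein of insulin-like growth factors, was at 0.39 and the S6 kinase RPS6KB1 at −0.27, both at an unadjusted p under 0.05. Of AMPK and sirtuin genes, which sense energy and NAD, 11 of 12 were below 0 with a median of −0.08, and none had an unadjusted p under 0.05. Without SD arrays 1 and 2 that median was −0.03.

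Immune and lysosomal lists had positive medians, and lists of stress genes lay near 0. Of 29 cytokines, complement and MHC genes 23 were above 0 (median 0.07), 6 at an unadjusted p under 0.05 and higher in HFS (20.7%) and none lower. HLA-E (0.45) and B2M (0.32), parts of the MHC class I complex, averaged 10.3 ± 0.24 and 11.4 ± 0.28 in HFS and 9.90 ± 0.31 and 11.1 ± 0.15 in SD, and a second probe of B2M gave 0.01. The median of this list was 0.10 with quantile normalization and −0.01 with median scaling. Of 16 cathepsins and cystatins, lysosomal proteases and their inhibitors, 12 were above 0 (median 0.14), among them CTSB (0.22, and 0.10 on its second probe). Antioxidant genes were split, 16 of 31 above 0, with GPX4, which removes lipid peroxides, at 0.32 and 0.11 on 2 probes. The list with MAFF held 26 small Maf, AP-1 and immediate early genes, of which 18 were above 0 (median 0.06). EGR1 was at 0.32, and MAFF was its only member that was lower at an unadjusted p under 0.05. NF-kB pathway genes (8 of 17 above 0) and BCL2 family and caspase genes (9 of 18) had medians of 0.00. At an unadjusted p under 0.05, the NF-kB list had 1 higher and 2 lower, and the BCL2 list 0 higher and 1 lower.

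Channels and synaptic genes lay in both directions. Of 53 potassium channel genes, 26 were above 0 (median −0.02), and at an unadjusted p under 0.05 there were 7 higher (13.2%) and 5 lower (9.43%). Besides KCNS1 and KCNK12, KCNF1 (0.30), a silent subunit, and KCNT1 (0.29), a sodium-activated channel, were higher on all 10 HFS arrays than the SD mean. The T-type calcium channel CACNA1I was at 0.35 and the sodium channel SCN2A at −0.28. The metabotropic glutamate receptor GRM8 was at −0.38. In the postsynaptic density list NSG1 (0.62), which sorts AMPA receptors in endosomes, and CAMK2G (0.32) were higher, and CAMK2D (−0.28) and the scaffold SHANK2 (−0.23) lower, all at an unadjusted p under 0.05. NSG1 averaged 6.94 ± 0.25 in HFS and 6.32 ± 0.38 in SD and was detected on all 10 HFS and 3 of 4 SD arrays.

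On the inhibitory side, the GABA receptor subunits GABRB1 (−0.32) and GABBR2 (−0.22) were lower at an unadjusted p under 0.05 and SLC32A1 (0.21), which loads GABA into vesicles, was higher. The list had 6 genes above and 7 below 0. Of 20 acetylcholine and monoamine receptors, 13 were below 0 (median −0.06) and 3 were lower at an unadjusted p under 0.05, CHRNA5, the serotonin receptor HTR1E (−0.22) and the adrenergic receptor ADRA1B (−0.46). Among synaptic vesicle genes (22 of 37 above 0) SYT4 (−0.41) and SYT17 were lower, and the fusion ATPase NSF (0.33 on its brightest probe, −0.21 to 0.26 on 4 others) was higher. The microtubule protein MAP1B was at 0.38. ST3GAL3 (0.28), a sialyltransferase, was positive in the list that also held FUT6, of which 4 of 13 were above 0. APP, the amyloid precursor, averaged 11.9 ± 0.16 in HFS and 11.5 ± 0.12 in SD (log2 fold change 0.32, 0.38 on its second probe, limma adjusted p = 0.197), and ADAM10, a secretase that cleaves it, was at −0.20.

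Markers of cell types showed what the tissue held. Markers were kept for neurons (7 of 8 on the array), astrocytes (6 of 7), oligodendrocytes (7 of 7), microglia (8 of 9), endothelium (6 of 8) and mural cells (6 of 7), and of choroid plexus markers only TTR was kept. In bulk tissue fewer cells of a type and less RNA per cell cannot be told apart. Neuron markers had a median of 0.12 (6 of 7 above 0), oligodendrocyte markers 0.03 (5 of 7) and microglial markers 0.01 (4 of 8). Without SD arrays 1 and 2 the medians were −0.00 for neurons, −0.12 for oligodendrocytes and 0.08 for microglia.

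All 6 astrocyte markers were below 0, with a median of −0.17 (−0.21 to −0.15 with 1 array left out, −0.13 without SD arrays 1 and 2), and 1 had an unadjusted p under 0.05. This was the glutamate transporter SLC1A3, at 8.87, 9.15 and 9.90 (lowest, median, highest) in HFS, against 10.17, 9.61, 9.39 and 9.25 in SD (log2 fold change −0.42, SE 0.16, limma adjusted p = 0.291, −0.13 without SD arrays 1 and 2). The gap junction protein GJA1 was at −0.28 and the folate enzyme ALDH1L1 at −0.25. The summed level of the list on the linear scale ran from 4281 to 6452 in HFS and from 5756 to 6032 in SD, so that the groups overlapped.

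Interneuron markers went both ways, with 3 of 8 above 0 (median −0.06) and 2 higher at an unadjusted p under 0.05, PVALB and SLC32A1. PVALB, the calcium buffer of fast-spiking interneurons, was at 12.40, 12.70 and 13.14 in HFS, against 12.55, 12.31, 11.25 and 12.66 in SD (log2 fold change 0.55, SE 0.20, limma adjusted p = 0.277). VIP (−0.36), a neuropeptide of another interneuron class, and LAMP5 (−0.37) were negative and did not reach an unadjusted p of 0.05, nor did the neuropeptide NPY (−0.31). Without SD array 3 the difference of PVALB was 0.24. This array, the 1 low SD array of PVALB, carried the highest SD levels of VIP and LAMP5. TBR1, a transcription factor of deep-layer excitatory neurons, was at 0.30, and it too was lowest in SD on array 3 (0.19 without that array). Of the excitatory neuron markers 2 of 5 were above 0 (median −0.04), with RORB at −0.12 and FEZF2 at −0.07. The oligodendrocyte junction protein CLDN11 was at −0.27.

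Haemoglobin transcripts had the largest list median, 0.95, with all 3 measured genes above 0 and 1 at an unadjusted p under 0.05. HBA2 was at 7.66, 9.29 and 10.91 (lowest, median, highest) in HFS, against 8.82, 7.61, 7.87 and 8.25 in SD (log2 fold change 1.22, SE 0.53, limma adjusted p = 0.337). HBA1 was at 0.95 and HBB at 0.88. Summed over the 3 genes on the linear scale, HFS arrays ran from 501 to 4744 and SD arrays from 565 to 1444. The HFS arrays thus spanned the whole SD range and went beyond it, and the part of blood left in the tissue in the other results was not tested.

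Vessel markers were also mostly positive. Endothelial markers had a median of 0.15, with 6 of 6 at or above 0.00 and none at an unadjusted p under 0.05 (SLC2A1, the glucose transporter of the blood-brain barrier, 0.22). Mural cell markers had a median of 0.12, and ACTA2 (0.51) and TAGLN (0.35), contractile proteins of smooth muscle, had an unadjusted p under 0.05. ACTA2 was at 9.01 to 10.12 in HFS against 8.67 to 9.26 in SD. Summed levels were 2489 to 3273 in HFS and 2247 to 2790 in SD for endothelium, and 1944 to 3451 in HFS and 1728 to 2417 in SD for mural cells. With median scaling the medians were −0.03 and 0.00, and without SD arrays 1 and 2 0.07 and 0.08. The part of these cells in other results was not tested.

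**Figure D4:**
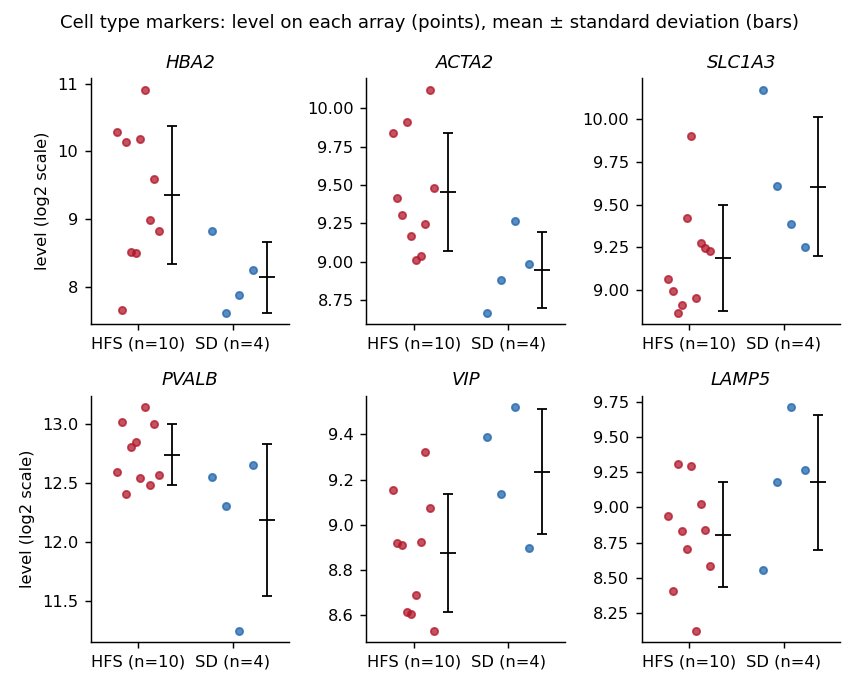
Level of 6 cell type markers on each array (y axis, log2 scale) in HFS (n = 10, left) and SD (n = 4, right), with the mean and standard deviation as bars. HBA2 spans 7.66 to 10.91 in HFS, and SD array 3 is lowest for PVALB and highest for VIP and LAMP5.

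The number of genes past combined thresholds depended on which SD arrays were used. The methods combine 3 criteria, read here as an absolute Z ratio above 1.5 (the difference of mean Z scores over the standard deviation of such differences), an unadjusted p below 0.05 and a false discovery rate below 0.3, a criterion whose sign is printed the other way round in the methods. With all arrays 532 genes passed (5.38%), 191 higher (1.93%) and 341 lower (3.45%) in HFS. This split was 202 and 238 with quantile normalization, 159 and 181 with neqc, and 21 and 2290 with median scaling. No gene passed when SD array 1 or SD array 2 was left out, 936 passed without SD array 3 and 1578 without SD array 4. Without both SD arrays 1 and 2, 1 gene passed. Of the HFS arrays, leaving out array 7 gave 94 genes and array 5 gave 950. At an unadjusted p under 0.05 the count was 755 without SD array 1, 758 without SD array 2 and 600 without both, against 1250 with all arrays, and 282 of the 600 were among the 1250.

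**Figure D5:**
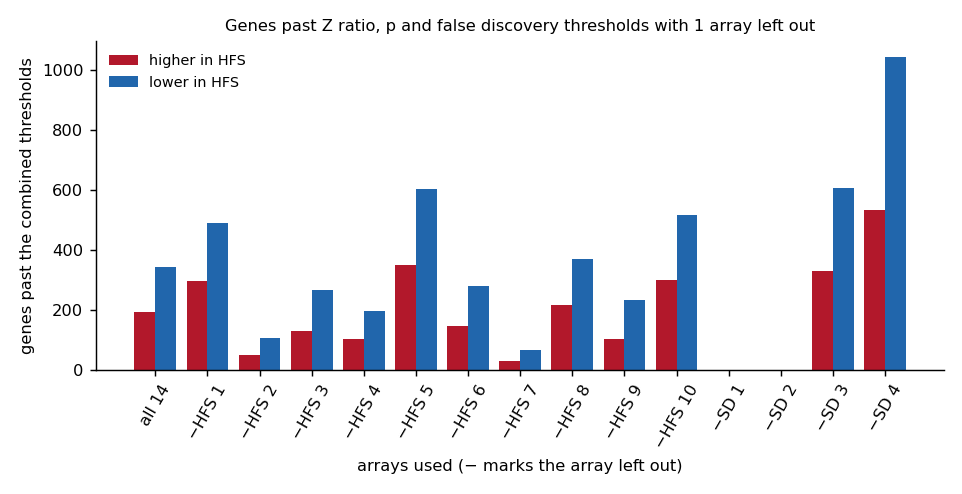
Genes past the combined thresholds (y axis) that were higher (red) or lower (blue) in HFS, with all 14 arrays and with each array left out in turn (x axis). The bars are at 0 without SD array 1 or SD array 2 and highest (534 higher, 1044 lower) without SD array 4.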

How the data were processed

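The authors deposited, for each probe and array, the signal intensity and the detection p-value from GenomeStudio 2011.1, and a Z score: the log2 signal minus its array mean, over its array standard deviation. Z scores recomputed from the signals matched those deposited within 5e-10. They were multiplied by 1.46 to read on a log2 scale. Of 47323 probes, 15531 reached a detection p below 0.01 on 4 or more arrays, and 12471 of these carry 1 gene symbol. The brightest probe stood for a gene (2132 of 9884 had several). Of the gene symbols, 9391 matched macaque gene tables and 493 did not.

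All 24 arrays entered 1 linear model in limma 3.58.1 (R 4.3.3, statmod 1.5.0), as the 3 diets share an estimate of spread, with 2-sided p-values and Benjamini-Hochberg adjustment at 0.05. Array measures were compared by exact permutation over all splits of the 14 arrays. The model was also run on data simulated from the mean level and spread of each gene. The noise was drawn independently for each gene and array, without shifts shared by a whole array. Tables were made in Python 3.11.15 with pandas 2.3.3 and numpy 2.4.6, and figures with matplotlib 3.10.9.

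Named were the genes the study names as measured (on the array, by RT-PCR or as protein), the 15 highest and 15 lowest log2 fold changes at an unadjusted p under 0.01 among genes detected on all 14 arrays, up to 4 members of each list by smallest p, and 5 non-overlapping genes in each direction by widest gap. For the last of these, a gene had to be detected on every array of the group with the higher level. Members, rule and the 58 gene lists (56 with at least 3 measured genes) were chosen with earlier results of these data known. Each array is a separate monkey, so p-values cover the spread between animals. Alternatives tried were median scaling, quantile normalization, neqc (offset 16), the deposited Z scores, other detection filters, the mean of a gene's probes, a robust prior with a trend, array weights, a fit of HFS and SD only, a replicate block, the array spread as a covariate, and arrays left out. The number of arrays limits the precision.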

Additional observations from a re-analysis of the deposited data

Results flagged for a closer look

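In groups of 4 to 10 arrays a level was set apart where its gap to the next array was large for the range of the group by Dixon's test, which chance does in about 1 in 20 groups. Of 282 groups tested (HFS and SD arrays of the 138 genes in the text and of 3 array measures), 15 were set apart, 10 in HFS and 5 in SD. Of the HFS levels, 4 were on array 1. These were MBTD1 as the highest (8.073, next 7.540), HSD17B7 as the highest (11.746, next 11.325), COMMD4 as the lowest (8.092, next 8.375) and HLA-E as the lowest (9.822, next 10.240). HFS array 6 was highest for ALDH2 (8.067, next 7.532) and SLC2A1 (10.490, next 10.060). HFS array 7 was lowest for NKAIN2 (7.558, next 8.269) and highest for EEF1A2 (14.350, next 13.949), array 3 highest for TUBA1A (13.805, next 13.277) and array 2 highest for VEGFA (7.685, next 7.347).

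Among SD arrays, array 1 was lowest for GRIN2B (6.789, next 7.356). Array 3 was lowest for CAMK2G (11.452, next 11.938) and TBR1 (8.460, next 8.851), and array 4 for CAMK2D (7.564, next 7.885) and HTR1E (6.616, next 6.701).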

How the results depend on the processing

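The count of 0 genes past the adjusted threshold in limma (358 at an unadjusted p under 0.01 and 1250 under 0.05) held in all settings but 3. Median scaling gave 1 gene (lower), leaving out 1 array gave 0 to 5, with FUT6 without HFS array 1, and FUT6, MAFF, MBTD1 and KCNK12 among 5 without SD array 4. At an unadjusted p under 0.05 there were 2410 genes with median scaling, 1959 without a filter on dim probes, 724 with the array spread as a covariate, 600 without SD arrays 1 and 2, and 755 to 1691 with 1 array left out. The combined thresholds gave 340 genes with neqc, 2311 with median scaling, 147 without a filter, 66 with only HFS and SD arrays in the fit, 1449 with array weights, 1 with the array spread as a covariate, 1 without SD arrays 1 and 2, and 0 to 1578 with 1 array left out. Groups did not overlap for 90 genes without a filter, 348 without SD arrays 1 and 2 (2 SD arrays remained), and 58 to 248 with 1 array left out. Same-numbered HFS and SD arrays (1 to 4) deviated together with correlations of −0.16, −0.07, 0.22 and 0.09, so the numbers were not taken as pairs. With the replicate number as a block, 0 genes passed the adjusted or the combined thresholds and 1077 had an unadjusted p under 0.05, beside 0, 0 and 988 on the same 8 arrays without the block, a fit added after seeing the data. The array spread differed by −0.107 to −0.0527 (exact p = 0.0140 without SD array 4) and detected probes by −711 to 366 with 1 array left out, and by −779.9 at a detection p under 0.05 (exact p = 0.054).

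Of 138 genes named, 103 kept their direction in every setting. Median scaling turned 28, IL18 (−0.31), COMMD3 (−0.16), NFKBIA (−0.12), PSMB5 (−0.055), EEF1A2 (−0.050), SLC32A1 (−0.038), EIF3H (−0.013), ACTB (−0.18), FOXO3 (−0.14), APOE (−0.13), ALDOC (−0.11), PECAM1 (−0.10), CST3 (−0.10), CTSB (−0.10), MDH1 (−0.093), NSF (−0.086), RPS29 (−0.077), ATP5F1B (−0.066), NOS3 (−0.054), TUBA1A (−0.046), RPS14 (−0.034), CYC1 (−0.034), CAMK2G (−0.025), VEGFA (−0.019), ATP5MG (−0.012), APP (−0.0075), GPX4 (−0.0027) and SLC2A1 (−0.0017). Quantile normalization turned ACTB (−0.042), IL18 (−0.099), HIF1A (0.030) and RELA (0.047), neqc ACTB (−0.041), IL18 (−0.099), HIF1A (0.037) and RELA (0.068), the array spread as a covariate ACTB (−0.052), IL18 (−0.15), COMMD10 (0.11), HIF1A (0.26) and TUBA1A (−0.10), array weights PECAM1 (−0.038) and COMMD3 (−0.048), the mean of a gene's probes COMMD10 (0.074), and leaving out SD arrays 1 and 2 ALDH2 (0.019), IL18 (−0.11), COMMD10 (0.036), HIF1A (0.21), NOS3 (−0.011), RELA (0.0090), SQLE (0.010) and TUBA1A (−0.30). With the replicate block AIF1 (0.033), NOS3 (−0.0043) and SPTBN1 (0.18) turned. With 1 array left out, HIF1A (−0.15 to 0.12), COMMD3 (−0.16 to 0.21), NOS3 (−0.040 to 0.071), PECAM1 (−0.033 to 0.053) and RELA (−0.060 to 0.063) lay on both sides of 0. Of 56 list medians, median scaling changed the sign of 23, and quantile normalization, neqc, the array spread as a covariate and leaving out SD arrays 1 and 2 changed 16 each. The cause of these changes was not tested.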
